A study of Mus musculus with 62 samples.

Results

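The nuclear genes for the respiratory chain and the ATP synthase were followed through RNA sequencing of mouse muscle and of a muscle cell line in which ChREBP had been deleted or overexpressed. The genes were taken by symbol from the deposited tables: every name starting with Nduf, Uqcr, Cox4i, Cox5, Cox6, Cox7, Cox8 or Atp5, together with Sdha, Sdhb, Sdhc, Sdhd and Cyc1, without pseudogene names and with a mean of at least 0.5 FPKM (fragments per kilobase of transcript, scaled to the reads of the library) in the table. This gave 96 genes in at least 1 of the 4 tables, and 85 of them in all 4. They were 91 genes of 29239 in the chow table, 91 of 21886 in the hypoxia and diet table, 92 of 21026 in the adeno-associated virus (AAV) table and 90 of 17896 in the C2C12 table. By role, the 96 were 7 core subunits, 31 accessory subunits and 9 assembly factors of complex I, 4 subunits of complex II, 9 of complex III, 18 of complex IV, and 17 subunits and 1 accessory protein (Atp5s) of the ATP synthase. Ndufa4 and Ndufa4l2 carry complex I names and were counted with complex IV, where the Ndufa4 protein is now placed, and Atp5sl was counted with the assembly factors of complex I.

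Complexes I and II pass electrons from NADH and succinate to ubiquinone, complex III passes them on to cytochrome c, and complex IV hands them to oxygen. Complexes I, III and IV pump protons across the inner mitochondrial membrane, and the ATP synthase lets the protons back to make ATP. A few subunits come from small gene sets with a widespread form and a form typical of heart and skeletal muscle (Cox6a1 and Cox6a2, Cox7a2 and Cox7a1, Cox8a and Cox8b), and slow, oxidative fibers, which fill much of the soleus (SOL), hold more mitochondria than the fast fibers that prevail in the gastrocnemius (GC).

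ChREBP is a glucose-sensing transcription factor encoded by Mlxipl. Male mice were 8 to 10 weeks old unless the study said otherwise, and all mice of the knockout experiments carried floxed ChREBP alleles: F/F controls (ChREBP-flox) without Cre and ChMKO mice (ChREBP-flox;Mck-cre) with Cre driven by the muscle creatine kinase promoter, which is active in skeletal muscle and heart. On normal chow, GC and SOL were sequenced (5 libraries for each muscle and genotype), and shared numbers in the labels were taken to mean the same mice. In GC, 4 libraries of each genotype came from each of 3 conditions: normoxia (Norm), hypoxia (Hypo, a simulated altitude of 5500 m for 14 days) and a high-fructose diet (HFrD, with 68% of calories from fructose, for 3 months). Wild-type C57BL6/J mice received AAV9 into the muscle with the cytomegalovirus promoter driving full-length mouse ChREBP (AAV-MLXIPL in the labels, AAV-ChREBP here) or with a control (AAV-CON), and GC was taken after 14 days (5 libraries each). C2C12 is a mouse myoblast line that fuses into myotubes in culture, and puromycin-selected cells carrying ChREBP (ChREBP-OE) or the vector alone were sequenced on day 7 of differentiation (4 libraries each). The methods call replicates independent, but the labels do not say whether these 4 came from separate cultures. No independently made lines are described either. In both cases p-values in the cell line measure only the spread between those libraries, not between lines. In the mouse experiments whole tissue was sequenced, so fewer cells of a type and less RNA per cell cannot be told apart in any of their results. Nor can the share of fused cells and the RNA per cell be told apart in C2C12.

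Mlxipl itself followed the labels. Its transcripts remain in part after deletion of exon 8, and it read 20.4 to 30.3 FPKM in GC of F/F and 12.5 to 18.5 in GC of ChMKO on chow, 43.8 to 64.1 against 30.0 to 46.1 in SOL, 7.76 to 10.8 against 2.38 to 4.49 in the hypoxia and diet experiment, 10.4 to 12.3 in AAV-CON against 52.9 to 101 in AAV-ChREBP, and 0 to 0.02 in C2C12 control against 12.8 to 13.8 in ChREBP-OE. Slow fiber markers (Myh7, Myh7b, Tnnc1, Tnni1 and Tnnt1) summed to 6269 to 10219 FPKM in SOL and 3.73 to 153 in GC of F/F mice, which is the order the muscle labels give. Depth could be recovered for the hypoxia and diet table only (14473170 to 23460515 reads a library), and libraries of the same group correlated at 0.942 to 0.998 across genes.

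The 24 hypoxia and diet libraries fell into 2 sets of 12 that split Norm F/F and Hypo F/F but no other group. This bears on each comparison whose groups hold different sets. On the first principal component of 4401 genes that are not respiratory subunits (64.5% of the variance), the 8 HFrD libraries stood with 2 Norm F/F libraries (N_WTc397 and N_WTc401) and 2 Hypo F/F libraries (H_WTc360 and H_WTc361) as set 1. The other Norm F/F (N_WTc368 and N_WTc369) and Hypo F/F libraries (H_WTc341 and H_WTc348), all Norm ChMKO and all Hypo ChMKO libraries stood opposite as set 2. The labels name no batch. Titin (Ttn), the giant sarcomere protein, read 133 to 162 FPKM in set 1 and 21.2 to 43.0 in set 2, and the mitochondrially encoded mt-Nd6 read 4352 to 6339 against 637 to 1335. Not every mitochondrially encoded gene split in this way: mt-Co1 read 34799 to 42155 in set 1 and 27350 to 52318 in set 2, with overlap. The nuclear subunit genes moved opposite to Ttn and mt-Nd6: their sum was 8347 to 9692 FPKM in set 1 and 11454 to 14446 in set 2, with no overlap. Of the 91 genes, 59 were lower in set 1 in every library, Ndufaf4 alone was higher in every library, where 33.2% of the 4401 genes did not overlap between the sets, and the median log2 difference of set 1 minus set 2 was -0.49. The plot of summed subunit expression by group shows both genotypes and all conditions.

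**Figure D1:**
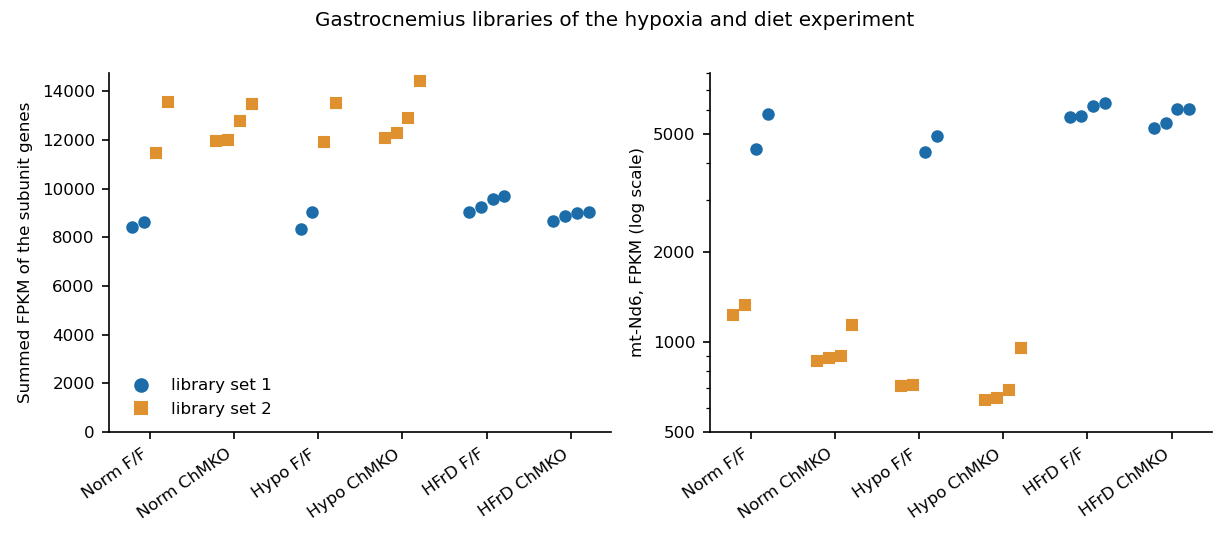
Summed FPKM of the subunit genes (left) and FPKM of mt-Nd6 on a log scale (right) in each GC library of the hypoxia and diet experiment, 4 libraries a group, with circles for library set 1 and squares for set 2. The sums lie between 8347 and 9692 in set 1 and between 11454 and 14446 in set 2, while mt-Nd6 runs the other way. Only Norm F/F and Hypo F/F hold both sets.

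Promoters of 6 members are shown because their genes carry the main contrasts that follow: Sdhb, and the widespread and muscle forms Cox8a and Cox8b, Cox7a2 and Cox7a1, and Cox6a1. Each run is 300 bases of RefSeq sequence (GRCm38.p6), 5′ to 3′ on the gene's own strand, from 250 bases before to 50 bases after the annotated start. Capitals mark GCATGCGC, which lies in sites of nuclear respiratory factor NRF1, and CCGGAAG, a site of the GABP family, on either strand (CTTCCGG when read backwards). They lie at chr4:140961021-140961320 (plus strand, Sdhb), chr5:115348909-115349208 (minus strand, Cox6a1), chr19:7217567-7217866 (minus strand, Cox8a), chr7:140900397-140900696 (minus strand, Cox8b), chr7:30183921-30184220 (plus strand, Cox7a1) and chr9:79759804-79760103 (minus strand, Cox7a2).

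Sdhb: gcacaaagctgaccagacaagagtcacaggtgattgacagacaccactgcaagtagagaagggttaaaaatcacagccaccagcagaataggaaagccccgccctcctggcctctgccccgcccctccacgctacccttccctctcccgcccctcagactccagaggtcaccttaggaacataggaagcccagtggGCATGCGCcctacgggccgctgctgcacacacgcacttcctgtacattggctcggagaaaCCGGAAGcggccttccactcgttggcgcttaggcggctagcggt

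Cox6a1: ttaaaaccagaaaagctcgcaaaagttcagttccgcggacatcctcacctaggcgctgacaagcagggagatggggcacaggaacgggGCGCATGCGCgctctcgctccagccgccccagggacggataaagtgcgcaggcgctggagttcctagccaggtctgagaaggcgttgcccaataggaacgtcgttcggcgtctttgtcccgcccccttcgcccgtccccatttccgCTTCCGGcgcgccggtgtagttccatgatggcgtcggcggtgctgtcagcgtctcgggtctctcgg

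Cox8a: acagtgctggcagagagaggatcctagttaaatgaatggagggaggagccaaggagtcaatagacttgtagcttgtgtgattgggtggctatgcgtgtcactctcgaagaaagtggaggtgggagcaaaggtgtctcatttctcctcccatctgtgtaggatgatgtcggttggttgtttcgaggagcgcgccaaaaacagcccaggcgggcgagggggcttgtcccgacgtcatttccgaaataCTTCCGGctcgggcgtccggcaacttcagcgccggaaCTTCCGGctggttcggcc

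Cox8b: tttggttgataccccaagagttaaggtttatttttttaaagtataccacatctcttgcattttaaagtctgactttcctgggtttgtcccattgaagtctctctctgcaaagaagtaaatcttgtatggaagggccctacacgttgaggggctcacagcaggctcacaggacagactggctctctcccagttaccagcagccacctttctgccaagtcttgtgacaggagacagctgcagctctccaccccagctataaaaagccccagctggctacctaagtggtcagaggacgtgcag

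Cox7a1: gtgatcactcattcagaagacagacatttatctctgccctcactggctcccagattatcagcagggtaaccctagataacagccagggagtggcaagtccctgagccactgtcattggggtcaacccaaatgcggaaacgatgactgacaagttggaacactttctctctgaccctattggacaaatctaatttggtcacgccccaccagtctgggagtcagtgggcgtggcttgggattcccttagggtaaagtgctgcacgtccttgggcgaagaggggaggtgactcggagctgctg

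Cox7a2: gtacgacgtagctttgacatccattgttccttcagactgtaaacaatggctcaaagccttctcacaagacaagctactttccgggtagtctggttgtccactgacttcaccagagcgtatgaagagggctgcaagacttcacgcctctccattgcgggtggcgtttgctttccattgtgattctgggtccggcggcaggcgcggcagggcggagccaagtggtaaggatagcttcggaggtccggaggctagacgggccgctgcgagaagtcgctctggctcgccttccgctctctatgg

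Sdhb held GCATGCGC with its first base at -54 from the start and CCGGAAG at 6. Cox6a1 held a palindromic stretch with GCATGCGC at -160 on the gene's strand and at -162 on the other, and CCGGAAG on the reverse strand at -16, and Cox8a held CCGGAAG on the reverse strand at -5 and 32. None of these letters occurred in the windows of Cox8b, Cox7a1 and Cox7a2. CG pairs numbered 32 in the Cox6a1 window, 20 in Cox7a2, 19 in Cox8a and 15 in Sdhb, and 7 in Cox7a1 and 2 in Cox8b. Windows were found for 76 of the 96 genes (81 windows). GCATGCGC was in 14.8% of these and in 2.71% of all 32851 windows of the same length, noncoding genes included, CCGGAAG in 23.5% against 8.86%, the estrogen-related receptor element TCAAGGTCA in 2.47% against 0.423%, the E-box CACGTG in 8.64% against 7.15%, and the shorter ACGTG, which lies within every CACGTG, in 24.7% against 19.6%.

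The first comparison asked how the slow SOL and the fast GC of the chow mice differ. In F/F mice the subunit genes were expressed at 27184 to 34744 FPKM in sum in SOL and 18216 to 21564 in GC, 5.07% to 5.96% of all FPKM against 3.70% to 4.44%. Of the 91 genes tested with limma on log2(FPKM + 1), 76 were higher in SOL and 1 was lower (0 with the mouse as a block) at an adjusted p under 0.05 (Benjamini-Hochberg over all genes tested), where 50.4% of all genes passed. The groups did not overlap for 64 of those 76, a pattern that 26.3% of all genes showed in that direction. Without Cox6b2, which reached the filter of 0.5 FPKM in SOL alone, the counts were 75 higher and 63 without overlap of 90 genes. The median log2 difference of the 91 genes was 0.59, against 0.18 over all genes tested. Rescaling by median ratios lowered the members' median to 0.38, with 52 called higher and 3 lower. ChMKO mice gave 81 higher and 2 lower with 57.9% of all genes called, 80 higher without overlap where 30.2% of all genes were, and a median of 0.62 against 0.15. Without Cox6b2 and Cox4i2, which passed the filter there through SOL alone, these counts were 79 higher and 78 without overlap of 89 genes. No library is shared between the genotypes, and 75 genes were called higher in both, a count that still includes Cox6b2 and Cox4i2.

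**Figure D2:**
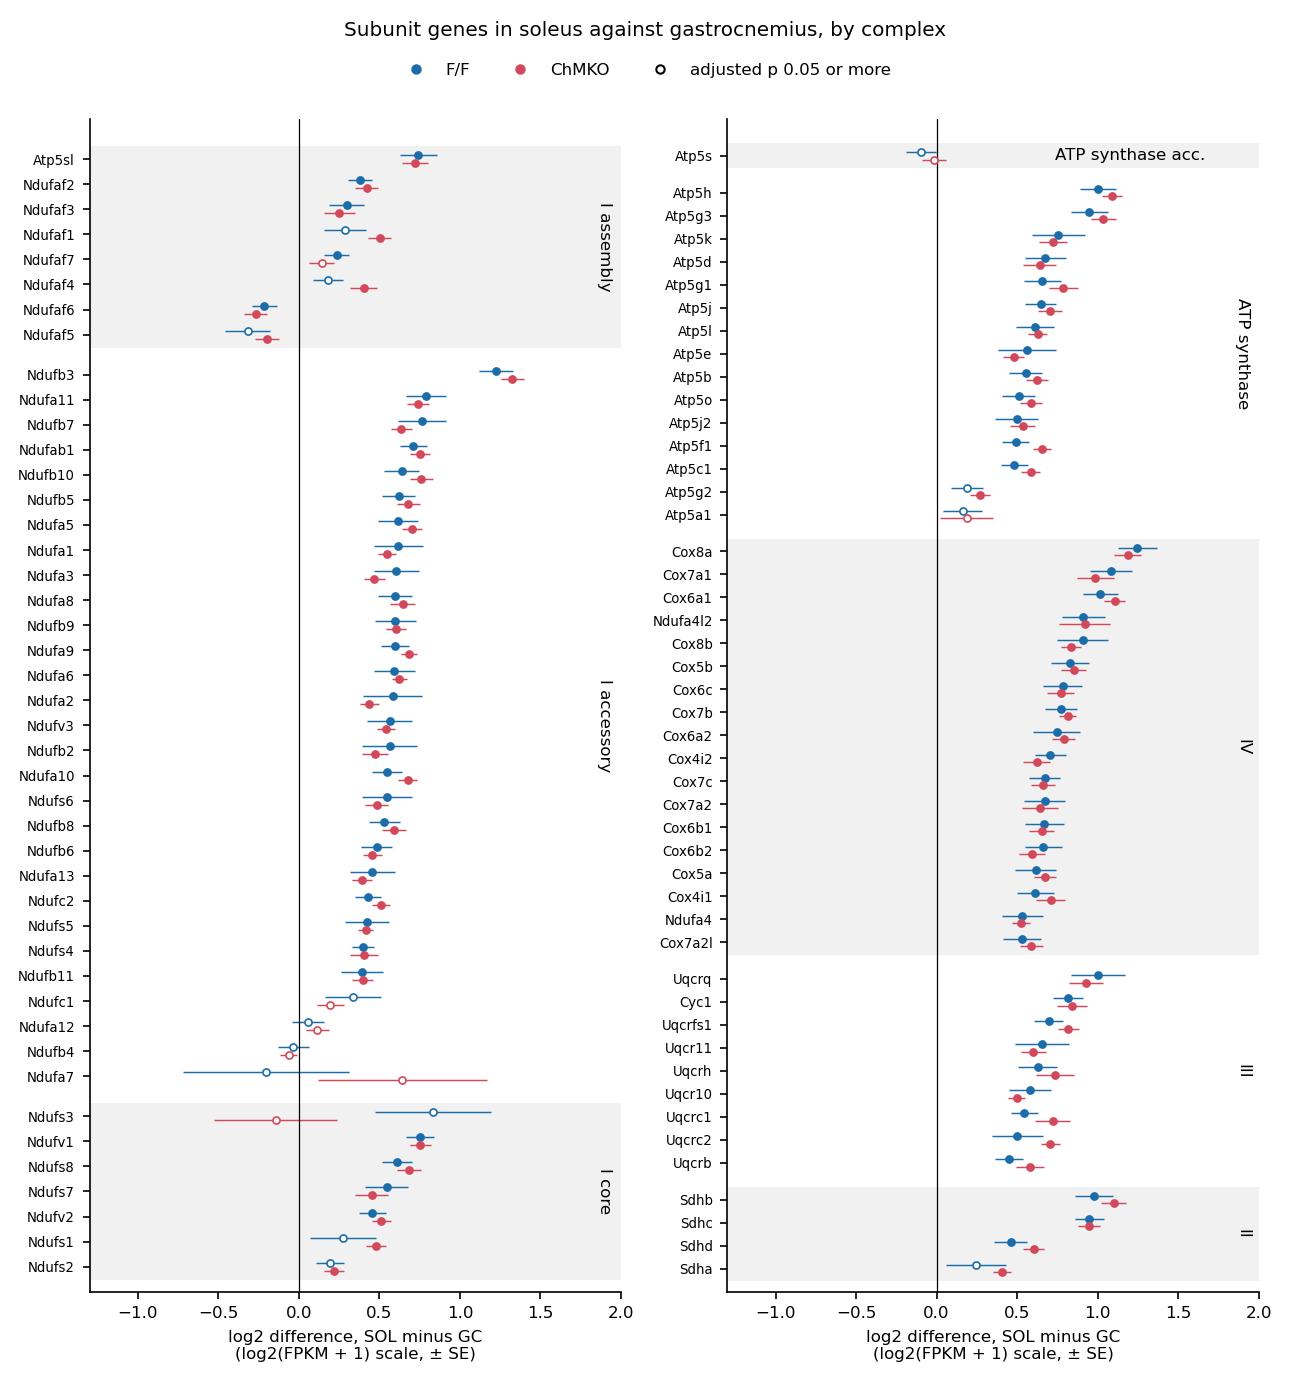
Log2 difference of SOL minus GC with its standard error for each subunit gene, on the log2(FPKM + 1) scale, in F/F (blue) and ChMKO (red) mice, 5 libraries a group, sorted within each complex. Open circles did not pass the test, and the 17 complex IV genes with at least 0.5 FPKM in each muscle of F/F lie at 0.53 to 1.25 there. Cox6b2, and Cox4i2 in ChMKO, are drawn but passed the filter through SOL alone.

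The complex IV genes that averaged at least 0.5 FPKM in each muscle were called higher in SOL, 17 of 17 in F/F (median 0.75) and 16 of 16 in ChMKO (median 0.78). Cox6b2 in both genotypes and Cox4i2 in ChMKO passed the filter on low values through SOL alone, with GC means of 0.426 FPKM for Cox6b2 in F/F and 0.284 in ChMKO and of 0.430 for Cox4i2, so they were bound to be higher there and are not counted. With the libraries rescaled by median ratios, Cox7a2l (adjusted p = 0.0626 by limma) and Ndufa4 (adjusted p = 0.0849) no longer passed in F/F. Cox8a, the widespread form of a small subunit, read 23.5, 26.4, 30.7, 24.0 and 22.4 FPKM in GC of F/F and 58.9, 61.4, 54.8, 53.9 and 80.9 in SOL. Its lowest SOL library lay above its highest GC library, and the log2 difference was 1.25 ± 0.12 (SE, adjusted p = 2.0e-05 by limma). Cox6a1, the widespread form of a regulatory subunit, read 36.0, 45.8, 46.1, 42.9 and 36.1 FPKM in GC and 76.5, 92.3, 76.1, 80.9 and 98.0 in SOL (1.02 ± 0.11, adjusted p = 2.84e-05). Here too the muscles did not overlap. The muscle form Cox7a1 read 241, 289, 284, 223 and 268 FPKM in GC and 519, 576, 476, 490 and 731 in SOL (1.08 ± 0.13, adjusted p = 7.32e-05). Cox6a2, the muscle form and the most abundant complex IV transcript of this table per length, read 708, 823, 1041, 726 and 691 FPKM in GC and 1146, 1467, 1221, 1218 and 1620 in SOL (0.75 ± 0.15, adjusted p = 0.00157). Cox4i1, the largest nuclear-encoded subunit of the enzyme, differed by 0.61, Cox5a by 0.62 and Cox8b by 0.91. At the low end of the scale Ndufa4l2, a paralog of Ndufa4 induced by low oxygen in other settings, read 5.09 to 7.37 FPKM in GC and 10.8 to 16.8 in SOL.

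All 9 complex III genes were called higher in SOL in both genotypes, with medians of 0.63 and 0.72. Cyc1, cytochrome c1, read 228, 278, 241, 238 and 235 FPKM in GC of F/F and 457, 466, 407, 378 and 448 in SOL, a log2 difference of 0.82 with no overlap. The Rieske iron-sulfur protein Uqcrfs1 differed by 0.70 and the core protein Uqcrc1 by 0.54. Uqcrq, a small subunit, stood furthest apart of the complex with 1.00 ± 0.17.

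In complex II the iron-sulfur subunit and the membrane anchors set the pattern. Sdhb, the iron-sulfur subunit, read 211, 304, 226, 260 and 215 FPKM in GC of F/F and 435, 551, 464, 451 and 480 in SOL. The muscles were well apart, and the log2 difference was 0.98 ± 0.12 (adjusted p = 7.2e-05 by limma) in F/F and 1.10 ± 0.08 in ChMKO. The anchors Sdhc and Sdhd differed by 0.95 and 0.46 in F/F. With the libraries rescaled by median ratios, Sdhd no longer passed (0.25, adjusted p = 0.053 by limma). Sdha, the flavoprotein that oxidizes succinate, read 327, 377, 264, 353 and 305 FPKM in GC of F/F and 433, 464, 430, 409 and 230 in SOL. The 4 other SOL libraries lay above all GC libraries and SOL F/F 71 lay below them, and the difference of 0.24 ± 0.19 did not pass (adjusted p = 0.297). Without SOL F/F 71 it did (0.42 ± 0.11, adjusted p = 0.0084 by limma). In ChMKO, where Sdha read 316 to 352 FPKM in GC and 417 to 478 in SOL, it did (0.41 ± 0.05, adjusted p = 6.42e-05).

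Of the ATP synthase subunits, 13 of 15 were called higher in SOL in F/F (median 0.56) and 14 of 15 in ChMKO (median 0.63). Atp5b, the catalytic beta subunit, read 1134, 1265, 1080, 1154 and 1137 FPKM in GC of F/F and 1715, 1935, 1695, 1623 and 1523 in SOL, a log2 difference of 0.55 without overlap. The stalk subunit Atp5h differed by 1.00 ± 0.11. The membrane ring of subunit c is encoded by 3 genes that give the same mature protein, and they parted: Atp5g3 read 423, 534, 496, 434 and 436 FPKM in GC and 856, 997, 807, 785 and 1055 in SOL (log2 difference 0.95), Atp5g1 differed by 0.66, and Atp5g2 read 183, 179, 218, 161 and 195 against 203, 243, 202, 199 and 219 (0.19, adjusted p = 0.131). Atp5g2 overlapped between the muscles, and without GC F/F 69 it passed (0.25, adjusted p = 0.0439). Atp5a1, the alpha subunit that alternates with beta around the catalytic head, read 584, 585, 571, 513 and 556 FPKM in GC of F/F and 714, 730, 675, 510 and 543 in SOL. The values overlapped, and neither genotype passed (0.16, adjusted p = 0.279, and 0.19, adjusted p = 0.345).

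Complex I was the least uniform. Its accessory subunits were called higher for 25 of 29 genes in F/F (median 0.56), and 4 of 7 core subunits passed. Ndufb3, an accessory subunit of the membrane arm, read 97.5, 119, 107, 105 and 92.9 FPKM in GC of F/F and 213, 271, 227, 232 and 289 in SOL. Its difference of 1.23 ± 0.11 (adjusted p = 9.06e-06) in F/F and 1.33 ± 0.07 (adjusted p = 5.62e-08) in ChMKO was the largest of the complex. The NADH-binding core subunit Ndufv1 differed by 0.75 in each genotype. Ndufs1, the largest core subunit, did not pass in F/F (0.27, adjusted p = 0.281; without SOL F/F 71, 0.46, adjusted p = 0.0188) and differed by 0.48 in ChMKO. Ndufs3, a core subunit, varied widely, with 22.9, 35.6, 23.5, 24.0 and 7.05 FPKM in GC of F/F and 52.1, 28.1, 35.7, 25.0 and 51.7 in SOL. Its difference of 0.83 ± 0.36 in F/F did not pass (adjusted p = 0.0766), and in ChMKO it was -0.14 ± 0.38. Ndufa7 was as scattered, from 1.51 to 27.9 FPKM over the 20 chow libraries, and Ndufb4 and Ndufa12 did not pass in either genotype. The assembly factors, which help build complex I and are not part of it, had a median of 0.26, with 4 of 8 called higher. Ndufaf6 was lower: it read 6.11, 5.90, 6.80, 6.47 and 6.30 FPKM in GC of F/F and 5.98, 5.67, 4.84, 4.75 and 5.37 in SOL (-0.21 ± 0.08, adjusted p = 0.0362; -0.27 ± 0.07, adjusted p = 0.00835 in ChMKO). With the mouse as a block 0 members were called lower in F/F, so Ndufaf6 no longer passed there, and 2 were in ChMKO, as without it. Ndufaf5 was the other called lower in ChMKO, by -0.20 (adjusted p = 0.0407).

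Other lists differed between the muscles to unequal degrees. The 13 mitochondrially encoded subunits were all higher in SOL of F/F, 5 of them past the test (median 0.58), and all 13 passed in ChMKO. Of 40 assembly factors and carriers of complexes III and IV, the ATP synthase and others, 12 were called higher and 4 lower in F/F, where 50.4% of all genes passed, with a median of 0.13 against 0.18. In ChMKO 20 were called higher and 8 lower, where 57.9% passed, with a median of 0.20 against 0.15, so the list lay below all genes in F/F and above them in ChMKO. Of 16 transcription regulators of mitochondrial genes, 9 were called higher in F/F and 11 in ChMKO, none lower. Esrrb and Esrrg, estrogen-related receptors, differed by 2.23 and 1.57 in F/F, Perm1 by 1.50, Ppara by 1.31 and Esrra by 0.62, while the coactivator Ppargc1a differed by 0.56 (adjusted p = 0.053). Markers of other cells moved as well: in F/F the adipocyte markers summed to 366 to 613 FPKM in SOL and 141 to 227 in GC (3 of 5 called higher), red blood cell markers to 156 to 337 against 59.2 to 119 (4 of 4) and endothelial markers to 88.1 to 143 against 26.5 to 58.7 (3 of 3). All 5 slow fiber markers were called higher. The part of any of these in the subunit difference was not tested.

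Muscle ChREBP deletion on chow gave no called subunit gene in either muscle. In GC, 0 of 90 genes passed, where 0.0236% of all genes did, and at an unadjusted p under 0.05 limma had 1 gene, where 4.63% of all genes had. That gene was Uqcrh, the hinge protein of complex III, which read 276, 282, 304, 270 and 290 FPKM in F/F and 272, 261, 247, 250 and 210 in ChMKO (-0.20 ± 0.08, adjusted p = 0.9996 by limma). The groups overlapped by a little. Small shifts had mostly 1 sign: 79 of 90 genes were lower in ChMKO, with a median of -0.07 over the 90 and 0.01 over all genes. That median was -0.04 without GC F/F 69 or without GC ChMKO 74. No marker gene passed. Among the lists, 4 of 4 slow fiber markers (median -0.65), 4 of 4 red blood cell markers (-0.10) and 12 of 13 mitochondrially encoded subunits (-0.11) also lay below 0, and 3 of 3 macrophage (0.29) and 3 of 3 fibroblast markers (0.14) above. The sums of the slow fiber markers overlapped, at 5.96 to 117 FPKM in ChMKO and 3.73 to 153 in F/F. In SOL, 0 of 91 passed (0.0225% of all genes), 2 had an unadjusted p under 0.05 (9.74% of all genes), and 64 were lower with a median of -0.03 against -0.02. Without SOL F/F 71 that median was 0.02, so its sign rests on 1 library. Here too no marker gene passed, and 5 of 5 slow fiber (median -0.23), 5 of 5 adipocyte (-0.45) and 3 of 3 endothelial markers (-0.32) lay below 0. The endothelial sums were 70.7 to 89.5 FPKM in ChMKO and 88.1 to 143 in F/F. The part of these lists in either muscle was not tested. The 2 subunit genes with an unadjusted p under 0.05 were minor forms of complex IV: Cox4i2, a lung-type form, read 1.58, 1.35, 1.49, 1.69 and 1.93 FPKM in F/F and 1.31, 1.01, 1.27, 1.16 and 1.22 in ChMKO (-0.25 ± 0.07, adjusted p = 0.391), and Cox6b2, a testis-type form, read 1.22, 1.44, 1.28, 1.13 and 1.10 against 0.839, 1.03, 0.829, 1.03 and 0.90. Neither overlapped between the genotypes. Whether the difference between SOL and GC depended on genotype was tested as an interaction, and 0 of the 91 genes passed (0.00759% of all genes; at an unadjusted p under 0.05, 0 members and 5.31% of all genes). The smallest p among the members was that of Ndufaf4, with an interaction of 0.22.

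AAV-driven ChREBP in GC of wild-type mice likewise gave 0 called genes of 92, where 0.00904% of all genes passed by limma, and 0 at an unadjusted p under 0.05, where 2.91% of all genes stood. The sum over the subunit genes was 11802 to 14549 FPKM in AAV-CON and 12250 to 14035 in AAV-ChREBP. All 92 log2 differences lay between -0.10 and 0.16, with a median of -0.01 that took either sign when 1 library was left out. Atp5b read 996, 1004, 902, 979 and 942 FPKM in AAV-CON and 902, 974, 957, 979 and 974 in AAV-ChREBP, and Sdhb read 145, 163, 118, 173 and 160 against 130, 148, 132, 159 and 159. Both overlapped almost fully. Ndufa4l2 came first in the order of p-values, with 3.08, 3.93, 3.93, 3.49 and 2.93 FPKM in AAV-CON and 3.93, 3.97, 4.28, 3.93 and 3.26 in AAV-ChREBP (0.13 ± 0.08, adjusted p = 0.99998).

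**Figure D3:**
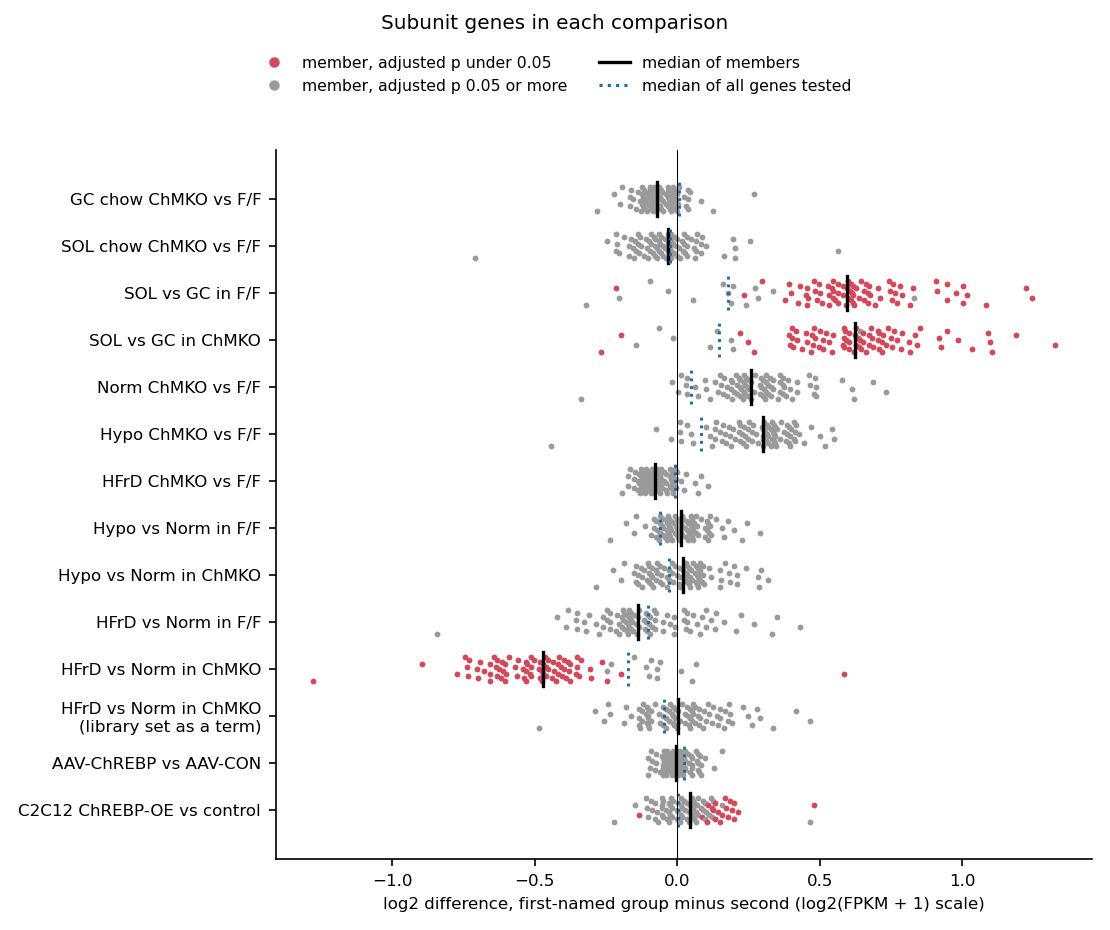
Each point is the log2 difference of 1 subunit gene, on the log2(FPKM + 1) scale, in the comparison named at the left, coloured where its adjusted p was under 0.05, with a black bar at the median of the subunit genes and a dotted bar at the median of all genes tested. Calls appear in both SOL and GC comparisons, in HFrD against Norm of ChMKO mice, where they are gone with library set as a term, and in C2C12.

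The high-fructose diet was compared with normoxic feeding on normal chow (Norm) within each genotype. Norm is also the control of the 14-day hypoxia experiment, and the labels name no group kept on chow for 3 months. Diet, time of feeding and age at collection therefore cannot be told apart in either genotype. In ChMKO mice the comparison also sets 4 libraries of set 1 against 4 of set 2. There, 78 genes were called lower on HFrD and 1 higher of 91, where 64% of all genes passed. For 75 of the 78 the groups did not overlap, as for 39.2% of all genes in that direction, and the median was -0.47 against -0.17 over all genes (-0.27 with 59 called after median-ratio rescaling). Ndufa4l2 read 10.4 to 13.3 FPKM in Norm ChMKO and 2.95 to 5.35 in HFrD ChMKO (-1.28 ± 0.14, adjusted p = 5.76e-05 by limma). Yet in F/F mice the same gene read 12.4 and 14.5 FPKM in the Norm libraries of set 2 and 6.06 and 6.69 in those of set 1, beside 4.54, 4.98, 4.52 and 4.98 on HFrD. Atp5g1 read 65.5, 69.5, 61.2 and 72.4 FPKM in Norm ChMKO and 35.4, 36.0, 36.8 and 34.1 in HFrD ChMKO (-0.90 ± 0.06, adjusted p = 2.61e-06), and in Norm F/F 57.5 and 76.9 in set 2 but 37.7 and 40.5 in set 1. Cox6a2 repeated this, with 836 to 964 FPKM in Norm ChMKO, 521 to 567 in HFrD ChMKO, and 991 and 1010 in the Norm F/F libraries of set 2 but 521 and 502 in those of set 1. Ndufaf4, a complex I assembly factor, was the 1 called higher, at 10.5 to 13.0 FPKM in Norm ChMKO and 17.8 to 19.1 in HFrD ChMKO (0.58 ± 0.06, adjusted p = 5.84e-05). Norm F/F split here too, at 11.5 and 11.2 in set 2 and 19.6 and 20.9 in set 1.

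A fit of all 24 libraries with the library set as a term, chosen after the data were seen, takes the set difference from the F/F groups that hold both and assumes that it is the same in ChMKO. In that fit 0 of the 91 genes were called between HFrD and Norm in ChMKO, where 0.345% of all genes passed, with 3 genes higher and 3 lower at an unadjusted p under 0.05 by limma (13.1% of all genes in either direction), and 46 genes were above 0 and 45 below. Ndufa4l2 was then at -0.48 ± 0.21 (adjusted p = 0.311), Atp5g1 at -0.18 ± 0.13, Cox6a2 at 0.25 and Ndufaf4 at -0.26. Outside this fit the diet and the library set cannot be told apart in ChMKO. In the same groups the 3 endothelial and the 4 red blood cell markers were all called lower on HFrD (medians -0.91 and -1.24), with endothelial sums of 35.6 to 42.4 FPKM against 68.7 to 78.6. Fibroblast markers summed to 19.4 to 29.2 FPKM against 78.7 to 250.4 (2 of 3 called lower), muscle fiber markers (Acta1, Ckm, Mb and Des) to 16848 to 18557 against 25560 to 30818 (3 of 4 called lower), and myoblast markers to 4.84 to 9.12 against 14.5 to 34.5, all without overlap. All 3 macrophage markers were called lower, and 8 of 13 mitochondrially encoded subunits were called higher and 2 lower. Their part was not tested.

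In F/F mice the diet comparison called 0 of 91 genes and 0% of all genes, with 4 members higher and 3 lower at an unadjusted p under 0.05 (23.6% of all genes) and a median of -0.14 against -0.10. The median was -0.01 without N_WTc369, -0.23 without N_WTc397 and -0.21 without N_WTc401, and -0.01 after median-ratio rescaling. Restricted to set 1, with 4 HFrD and 2 Norm libraries, 3 genes were called higher on HFrD (0.934% of all genes), and 71 of 91 lay above 0 with a median of 0.10. Ndufa3, an accessory subunit of complex I, read 41.7 and 46.0 FPKM in Norm and 65.4, 59.4, 57.2 and 63.1 on HFrD (0.47, adjusted p = 0.0368 by limma). Atp5k, subunit e of the ATP synthase, read 43.7 and 48.8 against 78.1, 64.6, 63.0 and 73.0 (0.58, adjusted p = 0.0444), and Ndufb9, an accessory subunit of the membrane arm, read 15.2 and 17.3 against 26.2, 23.4, 21.3 and 23.8 (0.52, adjusted p = 0.0444). None of the 3 overlapped within the set. The Norm libraries of set 2 read 68.0 and 80.2 FPKM for Ndufa3, 60.3 and 67.3 for Atp5k and 21.0 and 25.6 for Ndufb9, and with them the groups overlapped for each gene. With the set as a term over all 24 libraries, 0 genes were called in this comparison (0.00934% of all genes), 26 were higher and 1 lower at an unadjusted p under 0.05 by limma (13% of all genes in either direction), and the median was again 0.10.

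ChMKO and F/F mice were compared within each condition. Under Norm, 0 of 91 genes passed (0.00922% of all genes), 18 were higher at an unadjusted p under 0.05 by limma (11.1% of all genes in either direction), and 89 were above 0 with a median of 0.26. Atp5o, the stalk subunit OSCP, read 2.22, 2.53, 1.74 and 2.38 FPKM in F/F and 3.87, 3.99, 4.02 and 5.57 in ChMKO (0.73 ± 0.12, adjusted p = 0.418). Its groups were apart, also within set 2, but its level in this table was far below that on chow, and it has a near-identical gene copy. Within set 2, with 4 ChMKO and 2 F/F libraries, 0 genes were called (0.00927% of all genes), 4 were higher at an unadjusted p under 0.05 (2.75% of all genes in either direction), and the median was 0.03. Under Hypo, 0 passed (0.00941% of all genes), 5 were higher at an unadjusted p under 0.05 (5.27% of all genes) and the median was 0.30 (0.19 without H_WTc361, 0.18 after median-ratio rescaling). Within set 2 again 0 were called (0.00951% of all genes), 0 had an unadjusted p under 0.05 (0.818% of all genes), and the median was 0.02. No gene of a marker list passed under Norm or Hypo, but several lists lay above 0 with the subunit genes. Under Norm these were the red blood cell (4 of 4 genes, median 0.52), endothelial (3 of 3, 0.35), fibroblast (3 of 3, 0.33) and muscle fiber markers (4 of 4, 0.27), while 8 of 13 mitochondrially encoded subunits lay below 0 (median -0.39). Under Hypo the same lists had medians of 0.65, 0.34, 0.40 and 0.25 with all genes above 0, the macrophage markers 0.39 (3 of 3) and the adipocyte markers 0.41 (4 of 4), and 12 of 13 mitochondrially encoded subunits lay below 0 (-0.61). Their part was not tested. On HFrD all 8 libraries belong to set 1, and 0 genes passed (0.019% of all genes), 17 were lower at an unadjusted p under 0.05 (7.36% of all genes in either direction), and 83 of 91 were below 0 with a median of -0.08 against -0.01. No marker gene passed. The 5 slow fiber markers (median -0.21) and 9 of 13 mitochondrially encoded subunits (-0.07) lay below 0, and the 4 red blood cell (0.30) and 3 macrophage markers (0.18) above, and their part was not tested. In the fit of all 24 libraries with the set as a term, which takes its spread from all groups, the median was the same and 1 gene was lower at an unadjusted p under 0.05 (2.76% of all genes in either direction). Uqcrfs1 came first in the order of p-values, at 233, 234, 239 and 253 FPKM in F/F and 221, 214, 222 and 214 in ChMKO (-0.14 ± 0.04, adjusted p = 0.585 by limma). Sdhb read 119, 116, 113 and 120 FPKM in F/F and 104, 110, 105 and 90.9 in ChMKO, also without overlap. In this comparison 20 of the 91 genes (22%) were lower without overlap, where 2.95% of all genes were.

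Hypoxia gave no called subunit gene in either genotype. In F/F, 0 of 91 genes passed and 0% of all genes did, 0 members had an unadjusted p under 0.05 by limma (3.83% of all genes), and the median was 0.01, with either sign when 1 library was left out. With the library set as a term, 0 were called (0.242% of all genes), and 5 were higher and 1 lower at an unadjusted p under 0.05 (16.4% of all genes). Within set 1, 0 were called (0.748%), and 2 were higher and 3 lower at that level (17.6%), and within set 2, 0 were called (0%) and 1 was higher (7.53%). In ChMKO, where all 8 libraries belong to set 2, 0 of 91 passed (0.89% of all genes), 4 were higher at an unadjusted p under 0.05 (15.1% of all genes in either direction), and the median was 0.02, again with either sign when 1 library was left out. Cox7a2, the widespread form of the subunit, read 113, 133, 126 and 141 FPKM in Norm ChMKO and 162, 147, 174 and 156 in Hypo ChMKO. The groups did not overlap, and the difference of 0.32 ± 0.10 missed the threshold (adjusted p = 0.159). The muscle form Cox7a1 read 199, 212, 190 and 255 against 158, 175, 223 and 150 and overlapped (-0.29). With the set as a term over all 24 libraries, 2 members were called higher in ChMKO (6.99% of all genes): Cox7a2 (adjusted p = 0.0201) and Ndufa7, an accessory subunit of complex I (0.29, adjusted p = 0.0387), which read 41.9, 47.2, 46.6 and 45.6 FPKM in Norm and 54.3, 46.7, 60.6 and 62.7 in Hypo. Since both ChMKO groups lie in set 2, that fit changes the spread, taken from all groups, and not the difference. None of the 4 slow fiber markers tested passed under hypoxia (smallest adjusted p = 0.9996 in F/F and 0.146 in ChMKO by limma). All 4 had an unadjusted p under 0.05 in each genotype, with medians of 2.28 and 2.65, and the sums of the list overlapped, at 92.3 to 517 FPKM in Hypo F/F against 15.8 to 123 in Norm F/F and 70.1 to 565 against 6.31 to 125 in ChMKO. The part of these fibers in the Cox7a2 values was not tested.

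The genotype by condition interactions gave 0 called genes for hypoxia (0% of all genes, 1.23% at an unadjusted p under 0.05 and 0 members) and 0 for the diet (0% of all genes). For the diet, 38 members had an unadjusted p under 0.05, all with a lower response in ChMKO, where 10.3% of all genes did in either direction. Atp5o was the first of them (-0.91 ± 0.17, adjusted p = 0.334). Norm F/F holds both library sets and no ChMKO group does. With the set as a term 3 members had an unadjusted p under 0.05, all lower, near the 2.49% of all genes that had, and 0 were called (0% of all genes). In that fit 84 of the 91 members still lay below 0, with a median of -0.098 against 0.0036 over all genes.

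In C2C12 cells ChREBP overexpression came with 19 subunit genes called higher and 1 lower of 90, where 30.5% of all genes passed, with a median of 0.04 against 0.00 (0.02 without control replicate 3 and 0.07 without control replicate 1). The groups did not overlap for 17 of the 90 genes, 15 of them among the 20 called, where 31.3% of all genes did not overlap. By direction, 21.1% of the subunit genes were called higher against 16.3% of all genes, and 1.11% lower against 14.1%. Higher without overlap were 17.8% against 16.6%. Without ChREBP-OE replicate 2 the count of called genes was 13. Complex IV had 8 of 15 genes called higher, the accessory subunits of complex I 8 of 30 and the ATP synthase 3 of 17. No core subunit or assembly factor of complex I and none of the 9 complex III genes passed. Cox6a2, the muscle form, read 7.63, 7.15, 6.81 and 6.08 FPKM in control and 9.32, 11.5, 9.58 and 9.81 in ChREBP-OE, every overexpressing library above every control (0.48 ± 0.07, adjusted p = 0.000524 by limma). Cox5a read 127, 129, 135 and 128 FPKM in control and 147, 150, 146 and 144 in ChREBP-OE (0.18, adjusted p = 0.00069). Sdha was the 1 gene called lower, at 84.6, 83.2, 82.9 and 82.9 FPKM against 74.7, 75.7, 76.3 and 77.1 (-0.13 ± 0.02, adjusted p = 0.0016). These shifts were small but larger than the spread between libraries.

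**Figure D4:**
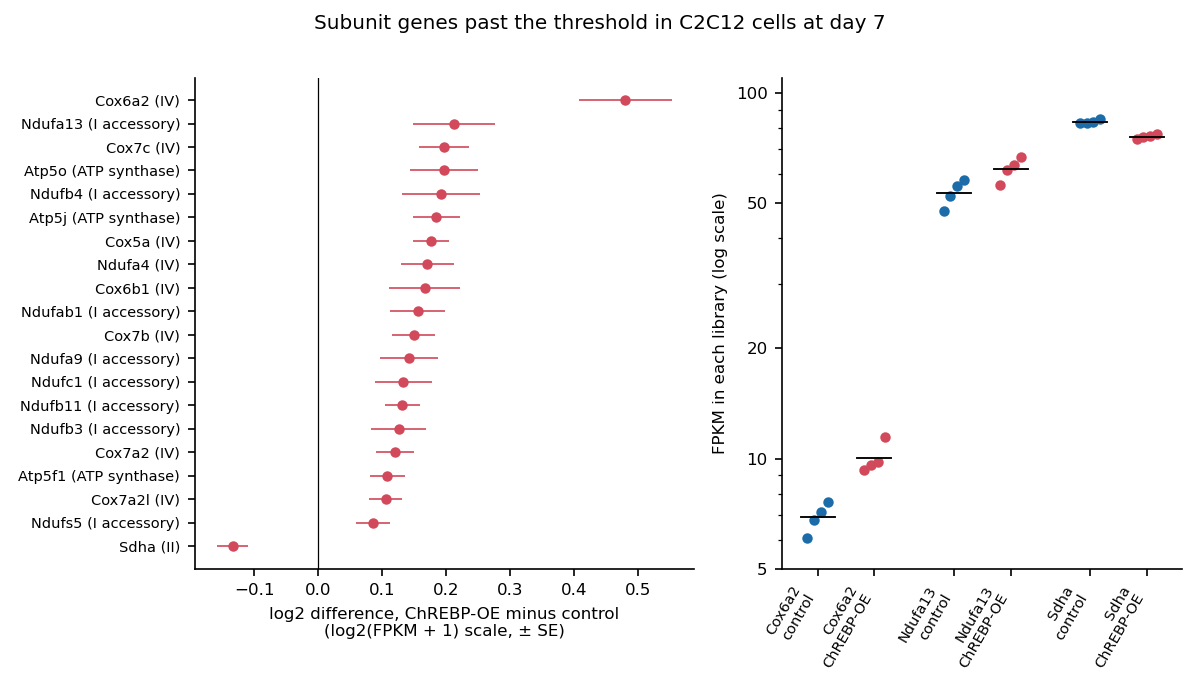
Left, log2 difference of ChREBP-OE minus control with its standard error, on the log2(FPKM + 1) scale, for the 20 subunit genes past the threshold in C2C12 cells on day 7. Right, FPKM in each of the 4 libraries a group on a log scale with a bar at the mean for Cox6a2, Ndufa13 and Sdha, where Ndufa13 overlaps between the groups and the other 2 do not.

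The rest of the called genes in C2C12 differed by 0.09 (Ndufs5) to 0.21 (Ndufa13). Cox7c, the most abundant complex IV transcript per length in these cells, read 527, 496, 508 and 553 FPKM in control and 609, 617, 578 and 586 in ChREBP-OE (0.20). Atp5j, coupling factor 6 of the ATP synthase, read 233, 227, 237 and 233 against 278, 271, 264 and 247 (0.18), and neither gene overlapped. Ndufa13 read 57.9, 52.3, 47.5 and 55.5 FPKM in control and 61.4, 66.9, 63.3 and 55.9 in ChREBP-OE, and Cox6b1 read 383, 343, 389 and 377 against 443, 446, 409 and 378, both with overlap. Cox6b1 (0.17, adjusted p = 0.0436) passed narrowly, and its adjusted p was 0.0534 to 0.116 in the alternatives that lost it. The other muscle forms did not pass: Cox8b read 2.39, 8.86, 7.84 and 2.77 FPKM in control and 5.22, 8.96, 6.36 and 7.88 in ChREBP-OE (0.47 ± 0.32, adjusted p = 0.295), and Cox7a1 read 8.76, 8.06, 7.11 and 11.4 against 7.93, 8.15, 6.21 and 7.14 (-0.22, adjusted p = 0.173). Atp5b read 646 to 667 FPKM in control and 655 to 666 in ChREBP-OE. The 4 slow fiber markers tested were all called higher in ChREBP-OE (median 0.47, sums of 547 to 585 FPKM against 393 to 430), 3 of 5 fast fiber markers were higher and 2 lower, and 1 of 11 transcription regulators was higher. Their part in the subunit values was not tested.

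The share of the widespread form within each subunit set is given in percent of summed FPKM. Values from different tables stand side by side without a test, since the tables were processed separately. Cox6a1 made up 4.25% to 5.58% of Cox6a1 and Cox6a2 together in GC of F/F on chow and 5.71% to 6.26% in SOL. It was 1.05% to 2.35% in the hypoxia and diet table and 1.86% to 4.26% in the AAV table. In C2C12 it was 97.9% to 98.2% in control and 96.4% to 97.4% in ChREBP-OE. Cox8a made up 6.30% to 7.84% of its pair in GC of F/F and 8.17% to 9.19% in SOL. It was 3.56% to 7.43% in the hypoxia and diet table, 16.8% to 25.6% in the AAV table and 97.5% to 99.5% in C2C12, so GC values of different tables lay further apart than the muscles did. Neither pair overlapped between the muscles in F/F. In ChMKO, Cox6a1 did not overlap (4.67% to 5.70% in GC, 5.77% to 7.62% in SOL) and Cox8a did (6.81% to 8.10% and 7.93% to 10.9%). Cox7a2 ran the other way between the muscles, with 24.9% to 28.2% in GC and 19.8% to 22.2% in SOL of F/F, although both Cox7a2 and Cox7a1 were higher in SOL. In ChMKO it overlapped, at 22.7% to 29.4% in GC and 16.6% to 25.2% in SOL. Atp5g3 made up 45.1% to 49.2% of the subunit c transcripts in GC of F/F and 54.1% to 56.2% in SOL. ChMKO mice gave 45.9% to 49.0% and 53.6% to 55.9%. Under hypoxia the Cox7a2 share was 49.0%, 46.8%, 48.9% and 49.2% in F/F, against 41.4%, 35.3%, 46.3% and 45.1% in Norm F/F, and 50.6%, 45.7%, 43.9% and 51.1% in ChMKO, against 36.2%, 38.5%, 39.9% and 35.7%. Hypo and Norm did not overlap in either genotype, nor within either library set, and the HFrD libraries lay at 36.5% to 40.6%. These shares are descriptions without a test.

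**Figure D5:**
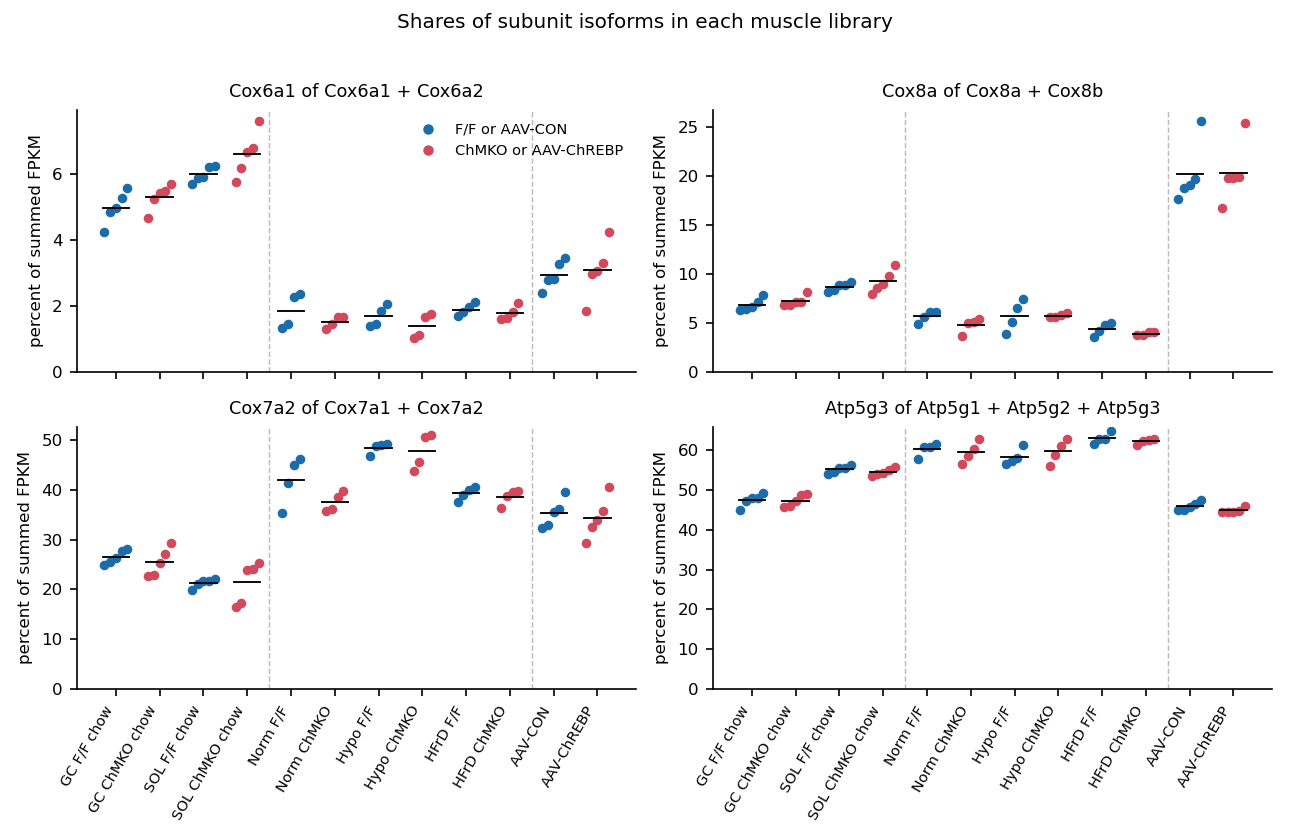
Percent of the summed FPKM of each subunit set that 1 gene makes up in each muscle library, with a bar at the group mean, 5 libraries a group on chow and with AAV and 4 in the hypoxia and diet groups. Dashed lines part tables that were processed separately, and within tables Cox7a2 lies at 43.9% to 51.1% in all Hypo libraries and at 35.3% to 46.3% in Norm.

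Near-identical gene copies can take or give reads, which leaves the levels of such members uncertain. Of 93 members matched to a transcript, 14 of the 87 compared had a copy elsewhere with at least 95% identity over at least 50% of the transcript. The mean in the hypoxia and diet table divided by that in the chow table was 0.323 in the median for these 14 and 0.467 for the other 73. It was 0.0051 for Atp5o and 0.0207 for Atp5l, which have copies, but also 0.0532 for Ndufb9, 0.057 for Cox5a and 0.067 for Ndufb7, which have none by this measure. The chow mean includes SOL and the other table holds GC alone. The part of the copies in these ratios was not tested, and tests were made only within a table.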

How the data were processed

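The authors deposited 4 tables of FPKM values per gene. Per the study's methods and the submitters' processing notes, reads were trimmed with fastp 0.18.0 and aligned with HISAT2 2.1.0. The notes also name Bowtie2 2.2.8, StringTie 1.3.1, RSEM and GRCm39, with no role or table given. The chow table gives GRCm38 positions, and in the AAV and C2C12 tables the FPKM unit was inferred from the values. The AAV table also holds group means, log2 fold changes and p-values of the authors, which were not used. Genes averaging 0.5 FPKM or more over the libraries compared were tested as log2(FPKM + 1) with limma 3.58.1 in R 4.3.3 (moderated test with a mean trend, Benjamini-Hochberg over all genes tested, two-sided), after a check on simulated data, so differences understate changes of low genes. Repeated entries of a member symbol (5 in the chow, 1 in the hypoxia and diet and 13 in the AAV table) were left out. Members and gene lists were chosen with earlier results of these data known. Named were isoform sets and core subunits in each complex, the 4 highest and lowest called members without overlap or, where none was called, the 3 with the smallest p. Genes named beyond these were chosen after their values were seen. By their label numbers GC and SOL come from the same mice, and same-numbered libraries correlated at -0.0239 to 0.323 in F/F and 0.0192 to 0.0502 in ChMKO (deviations from group means). The soleus library of F/F mouse 69 carries another mouse number, 59, in its title, so the blocked fit was also run without that mouse. AAV libraries of the same number correlated at 0.211 to 0.49 and were treated as paired in the blocked fit. Alternatives were a pseudocount of 0.1, no filter, a filter of 5 FPKM, median-ratio rescaling, 1 fit over all groups of a table, leaving out each library, replicate blocks and, chosen after seeing the data, the library sets.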

Additional observations from a re-analysis of the deposited data

Results flagged for a closer look

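Of 130 groups of libraries looked at (named genes by group of 4 or 5 libraries), 7 had 1 library far from the others by Dixon's ratio at the 95% level. Chance flags about 1 in 20 such groups. In SOL of F/F mouse 71, Cox8a read 80.9 FPKM with the others at 53.9 to 61.4, and Sdha read 230 FPKM with the others at 409 to 464. Both come from 1 library. Ndufaf6 read 4.39 FPKM in SOL of ChMKO mouse 74 (others 5.26 to 5.51). On HFrD, Cox6a2 read 623 FPKM in F/F library WT_C292 (others 572 to 577), and Ndufaf4 read 22.5 FPKM in F/F library WT_C310 (others 18.2 to 18.9). Atp5o read 5.57 FPKM in Norm ChMKO library N_KO_380 (others 3.87 to 4.02). In C2C12 control replicate 1, Sdha read 84.6 FPKM (others 82.9 to 83.2). No explanation of these values was tested.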

How the results depend on the processing

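Apart from the library sets, the counts of called members stayed within 1.5 times of those reported in 81 of 81 settings that changed the pseudocount, filter, scaling, fit or pairing, and in 113 of 114 that left out 1 library. The exception was C2C12, where 13 genes were called without ChREBP-OE replicate 2, against 20, and up to 25 (without control replicate 1) in the rest. SOL against GC ranged from 70 (without GC F/F 70) to 79 (without SOL F/F 71) in F/F and from 81 to 83 in ChMKO, and HFrD against Norm in ChMKO from 77 to 81. Median-ratio rescaling lowered the members' median to 0.38 (55 called, 52 higher and 3 lower) for SOL against GC in F/F, where Cox7a2l (adjusted p = 0.0626 by limma), Ndufa4 and Sdhd no longer passed, to 0.45 (80 called) in ChMKO and to -0.27 (59 called) for HFrD against Norm in ChMKO. Leaving out 1 library turned the sign of the members' median where it was near 0: -0.071 to 0.019 for ChMKO against F/F in SOL on chow, -0.091 to 0.13 for Hypo against Norm in F/F, -0.030 to 0.058 in ChMKO and -0.048 to 0.039 for AAV-ChREBP against AAV-CON. It moved by over 1.5 times, with no change of sign, for ChMKO against F/F in GC on chow (-0.10 to -0.036) and under Hypo (0.19 to 0.41), HFrD against Norm in F/F (-0.23 to -0.011) and C2C12 (0.019 to 0.067).

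With the mouse number as a replicate block, 76 members were called for SOL against GC in F/F, all higher, so that Ndufaf6 no longer passed, also without mouse 69, and 83 in ChMKO. The block changed no other count: 0 for AAV and 20 for C2C12, where the numbers do not pair the libraries (correlations -0.0938 to 0.176, and 2 of 4 libraries correlating best with their own number).

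The library sets mattered most. Within set 1, 3 genes were called for HFrD against Norm in F/F. With the set as a term, 2 were called for Hypo against Norm in ChMKO. Both of those groups lie in set 2, so the fit changed the spread, taken from all groups, and not the difference. For HFrD against Norm in ChMKO 0 were called with the set as a term, the median was 0.0011 and 12 named genes changed sign: Sdhb 0.13, Sdha 0.090, Atp5b 0.054, Atp5a1 0.046, Cox8b 0.42, Uqcrc1 0.0091, Cox6a2 0.25, Cox4i1 0.18, Cox6b1 0.044, Ndufv1 0.19, Cox7a1 0.12 and Ndufaf4 -0.26 (log2 differences). The cause of the sets was not tested. Depth is unknown for the chow, AAV and C2C12 tables, so no counting error can be given for low genes such as Cox4i2 and Cox6b2.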
